A study of Rattus norvegicus with 42 samples.

Results

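Insulin signalling and the forkhead factors it controls were followed through 9 genes in rat liver, namely the insulin receptor Insr, the adaptors Irs1 and Irs2, the kinase subunit Pik3r1, the phosphatase Inppl1, the kinase Akt2, the pseudokinase Trib1 and the transcription factors Foxo1 and Foxo3. The genes were chosen by name, with earlier results of these data known, as were the gene lists used below. Counts of them set beside the share of all genes are therefore descriptions. All 9 were present among the 22929 genes of the RNA table, they held 22 of 60999 pSer2 Pol2 regions, and 13 of 3981 glucocorticoid receptor (GR) regions were centred within 50 kb of the transcription start site (TSS) of 1 of them. All rats were male Sprague Dawley, adrenalectomised, so that they made no corticosterone (CORT) of their own, and given CORT in the drinking water after surgery until the day before infusion. They then received CORT or vehicle (VEH) into a vein for 3 h, either in pulses of 20 min each hour (PULS) or at a constant rate (CONS). ChIP-Seq libraries, each pooling 6 rats, formed 5 groups of 2 for each antibody. These were pulsatile CORT at 140 min (PEAK_140) and at 180 min, between pulses (NADIR_180), constant CORT at the same times (CONS_140, CONS_180), and pulsatile VEH with 1 library at each time (replicate 1 at 140 min, replicate 2 at 180 min), treated here as 1 group. RNA-Seq libraries at 180 min formed 4 groups of 3, namely pulsatile CORT, pulsatile VEH, constant CORT and constant VEH.

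Insulin bound to its receptor leads to phosphorylation of the Irs adaptors, which recruit phosphoinositide 3-kinase. The lipid made by this kinase activates Akt, and Inppl1 removes it. Akt phosphorylates the Foxo factors and keeps them out of the nucleus, which lowers transcription of glucose-producing genes such as Pck1, while insulin also raises Srebf1 and the enzymes of fatty acid synthesis. Glucocorticoids oppose insulin in liver.

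Sequence is shown for the genes whose RNA rose in both patterns, Foxo1 and Pik3r1, and for Insr, whose promoter held a FOXO site. RefSeq promoter sequence on the GRCr8 assembly was matched for 6 of the 9 members. The 250 b before each start were searched on both strands for the GR core ACANNNTGT, the GR hexamer AGAACA, the FOXO site GTAAACA, the insulin response element CAAAACA and the short cAMP response element TGACG. These letters were found in 5.81%, 17.5%, 3.21%, 5.46% and 18.2% of 33469 promoters, respectively. The stretches before Foxo1 (chr2:138462724-138462973, plus strand) and Pik3r1 (chr2:34697661-34697910, minus strand) held none of them, with a GC content of 74.4% and 77.2%. The Insr stretch (chr12:6128804-6129053, minus strand) held the FOXO site on its opposite strand at -100 and the short cAMP element at -113, both shown in capitals. Of the other members matched, Inppl1 held the GR core at -214 before 1 of its starts, Akt2 held the GR hexamer on its opposite strand at -241, and Irs1 held none. Positions count back from the start, and a match describes letters only.
Foxo1: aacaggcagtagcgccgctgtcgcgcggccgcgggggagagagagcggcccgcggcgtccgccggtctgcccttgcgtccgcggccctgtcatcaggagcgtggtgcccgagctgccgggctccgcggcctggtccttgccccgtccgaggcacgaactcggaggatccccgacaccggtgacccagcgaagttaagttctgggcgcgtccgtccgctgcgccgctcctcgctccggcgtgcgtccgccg
Pik3r1: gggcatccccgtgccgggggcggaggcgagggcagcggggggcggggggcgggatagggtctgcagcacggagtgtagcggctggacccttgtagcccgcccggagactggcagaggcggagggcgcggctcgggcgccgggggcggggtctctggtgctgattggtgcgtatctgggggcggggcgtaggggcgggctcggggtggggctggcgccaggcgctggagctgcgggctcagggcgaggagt
Insr: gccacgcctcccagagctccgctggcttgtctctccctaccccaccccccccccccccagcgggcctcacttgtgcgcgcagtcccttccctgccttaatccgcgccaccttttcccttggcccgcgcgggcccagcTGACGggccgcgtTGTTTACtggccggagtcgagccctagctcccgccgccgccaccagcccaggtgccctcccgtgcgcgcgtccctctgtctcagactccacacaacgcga

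Depth was 3956379 to 7777219 reads per RNA library, 2051977 to 6715803 tags per GR library and 4938473 to 9326927 tags per pSer2 Pol2 library. All 6 GR targets checked (Fkbp5, Per1, Tsc22d3, Tat, Zbtb16 and Dusp1) rose with CORT in both patterns. All 5 hepatocyte markers were detected, with Alb, serum albumin, at a mean of 105500 CPM (reads scaled to library size). Of the markers of other liver cells, 1 stellate cell marker, Dcn, rose in constant CORT (1.16 ± 0.34 on the log2 scale, adjusted p = 0.0359), a call that was lost without constant VEH replicate 1, and no other marker tested was called in either response. The cholangiocyte marker Krt19 had 0 reads. The summed stellate markers were lower with CORT, at 164.5 to 202 CPM in constant CORT against 227 to 234 in constant VEH and 165 to 210 in pulsatile CORT against 232 to 282 in pulsatile VEH. The other non-hepatocyte sums overlapped between CORT and VEH, and the part of cell type shares in the results was not tested. Library numbers in the labels ran from 787 to 798 for the RNA libraries of CORT and from 812 to 1134 for those of VEH, so treatment and library series cannot be told apart in RNA. Constant VEH replicate 1 carried 1134, away from 812 and 813 of the other constant VEH libraries, and pulsatile VEH carried 1081 to 1089. Fits without this replicate thus leave the 2 VEH groups in different library series. Its median absolute log2 difference from the rest of its group was 0.2408, close to the 0.2405 of pulsatile CORT replicate 3. In these bulk samples, fewer cells of a type and less RNA per cell cannot be told apart.

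The first comparison asked how the RNA of these genes answered CORT in each pattern. With constant CORT the RNA of Foxo1, Pik3r1, Foxo3 and Irs2 rose, by 2.02-fold to 3.54-fold, and no member fell. With pulsatile CORT the RNA of Pik3r1 and Foxo1 rose and that of Irs1 fell. Calls were made with edgeR's quasi-likelihood test over all genes, and needed both an adjusted p (Benjamini-Hochberg) under 0.05 and a difference exceeding 1.5-fold. The called members were 4 of 9 in the constant response, where 9.2% of 14092 genes were called. In the pulsatile response they were 3 of 9, where 4.23% were called. As the 9 were chosen with earlier results known, these shares are no independent test. The median change of the 9 was 1.02 on the log2 scale in the constant response and 0.12 in the pulsatile response, against -0.01 for all genes in both.

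**Figure D1:**
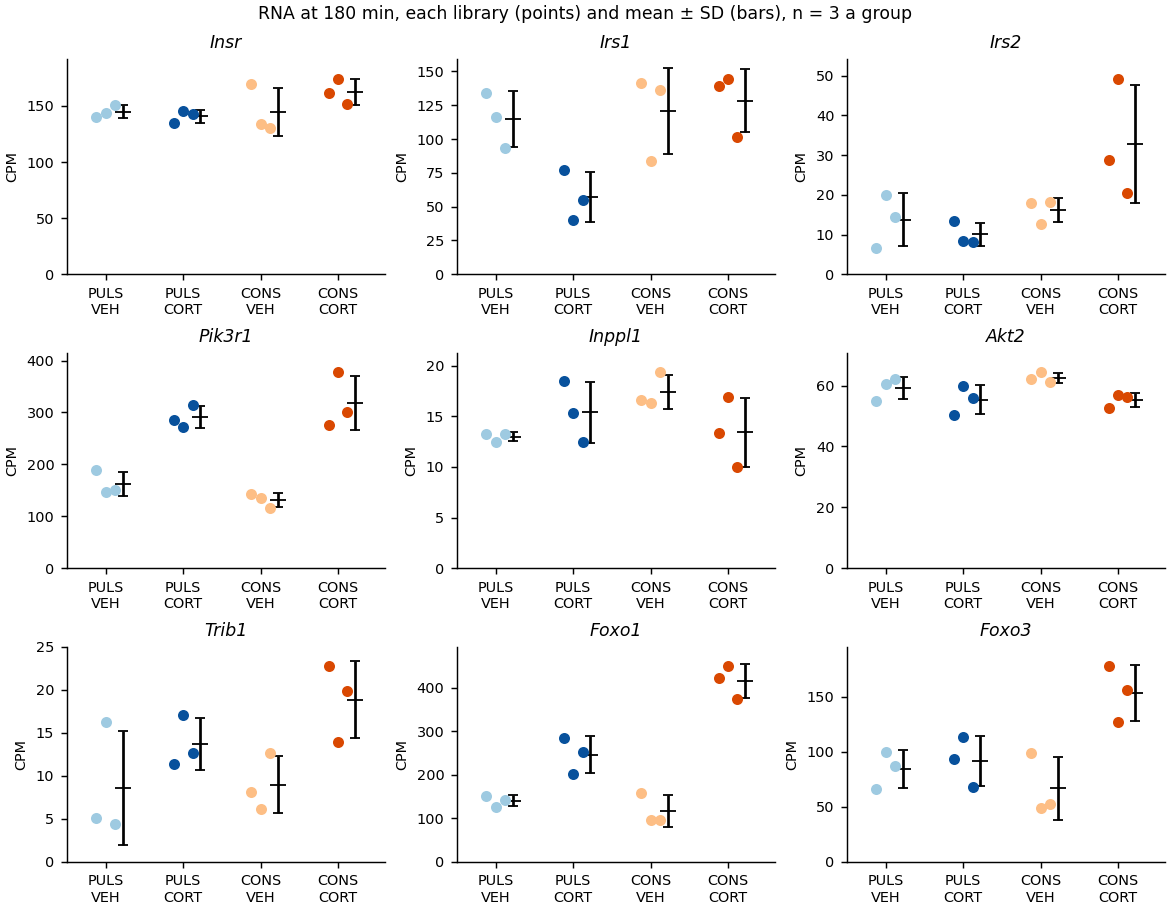
RNA of the 9 genes at 180 min in CPM (vertical axes, from 0), with each library as a point and the mean ± SD of 3 libraries as a bar beside it. Foxo1 lay between 373 and 449.6 CPM in constant CORT, above every other library.

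Foxo1, which turns on gluconeogenic genes when insulin is low, stood at 422, 449.6 and 373 CPM in constant CORT and at 158, 95.2 and 97.0 CPM in constant VEH. It stood at 284, 201 and 253 CPM in pulsatile CORT and at 152, 127 and 143 CPM in pulsatile VEH. Neither CORT group overlapped its VEH group, and the pulsatile CORT libraries all lay below the constant CORT libraries. The constant change was 1.82 ± 0.18 (log2, SE), or 3.54-fold, with an adjusted p of 6.5e-06. The pulsatile change was 0.81 ± 0.18, or 1.75-fold, with an adjusted p of 0.0146. Leaving out pulsatile CORT replicate 1 or pulsatile VEH replicate 2 ended the pulsatile call, where the change ranged from 0.69 to 0.94 and the adjusted p reached 0.0729.

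Foxo3, a related factor of stress resistance and autophagy, stood at 178, 127 and 156 CPM in constant CORT and at 99.4, 48.5 and 52.1 CPM in constant VEH. In pulsatile CORT it stood at 93.5, 113 and 67.6 CPM and in pulsatile VEH at 66.3, 99.9 and 87.3 CPM. The constant groups did not overlap and the pulsatile groups did. Foxo3 rose by 1.19 ± 0.25 on the log2 scale in the constant response (adjusted p = 0.00386). Its pulsatile change was 0.12 with a 95% interval of -0.41 to 0.64. Constant VEH replicate 1 was about as high as the highest pulsatile VEH library, and without it the constant change of Foxo3 was 1.61 (adjusted p = 0.000192) and that of Foxo1 2.11.

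Pik3r1 encodes the regulatory subunit that docks phosphoinositide 3-kinase on the adaptors. Its RNA stood at 276, 377 and 301 CPM in constant CORT, against 143, 136 and 116 CPM in constant VEH. Pulsatile CORT gave 286, 272 and 313 CPM and pulsatile VEH 189, 147 and 151 CPM. All 6 CORT libraries lay above all 6 VEH libraries. Pik3r1 rose by 1.27 ± 0.14 on the log2 scale in the constant response (adjusted p = 1.86e-05) and by 0.84 ± 0.14 in the pulsatile response (adjusted p = 0.00238), and both calls held under every alternative.

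Irs1 and Irs2 are the adaptors that carry the signal from the receptor. Irs1 stood at 76.8, 40.1 and 54.7 CPM in pulsatile CORT, below the 134, 116 and 93.1 CPM of pulsatile VEH. In constant CORT it stood at 139, 145 and 102 CPM and in constant VEH at 142, 84.0 and 136 CPM, which overlapped. Irs1 fell by 1.00 on the log2 scale in the pulsatile response (SE 0.23, adjusted p = 0.0195), to 0.501 of VEH. The call was lost without pulsatile CORT replicate 2 or 3 or pulsatile VEH replicate 1 or 2, with adjusted p up to 0.0955. Its constant change was 0.09, with a 95% interval of -0.38 to 0.56.

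Irs2 was a low transcript here, with 1260 reads over all 12 libraries. It stood at 28.8, 49.3 and 20.4 CPM in constant CORT and at 17.8, 12.8 and 18.1 CPM in constant VEH. The 2 constant groups did not overlap, by a narrow gap. Irs2 rose by 1.02 ± 0.32 on the log2 scale (adjusted p = 0.0478), and 7 of 13 alternatives ended this call, among them each of the 3 constant VEH libraries left out, constant CORT replicates 1 and 2 left out, and the replicate block, with adjusted p up to 0.287. In pulsatile CORT it stood at 13.5, 8.41 and 8.20 CPM and in pulsatile VEH at 6.70, 20.0 and 14.5 CPM, a change of -0.42 with a 95% interval of -1.23 to 0.38.

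Trib1, a pseudokinase that brings C/EBP alpha to a ubiquitin ligase, had 800 reads in all. It stood at 22.7, 13.9 and 19.9 CPM in constant CORT, above the 8.06, 6.17 and 12.7 CPM of constant VEH. The change of 1.05 ± 0.36 had an adjusted p of 0.0704 and was not called, although DESeq2 gave 0.0499. In pulsatile CORT it stood at 11.4, 17.1 and 12.7 CPM and in pulsatile VEH at 5.07, 16.2 and 4.36 CPM. These groups overlapped through pulsatile VEH replicate 2, and without that library the pulsatile change of 1.52 was called (adjusted p = 0.0176).

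The receptor, the phosphatase and the kinase passed in neither response. Insr ranged from 130.5 to 174 CPM over all 12 libraries, with a change of 0.16 (95% interval -0.08 to 0.41) in the constant and -0.04 (-0.29 to 0.21) in the pulsatile response. Akt2 ranged from 50.2 to 64.4 CPM, with changes of -0.18 (-0.40 to 0.05) and -0.10 (-0.32 to 0.13), although its 3 constant CORT libraries all lay below the constant VEH libraries. These intervals bound a change of Insr or Akt2 below 1.5-fold in both patterns. Inppl1, which opposes the kinase, had 970 reads in all and changed by -0.36 (-0.75 to 0.03) and 0.26 (-0.15 to 0.67).

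**Figure D2:**
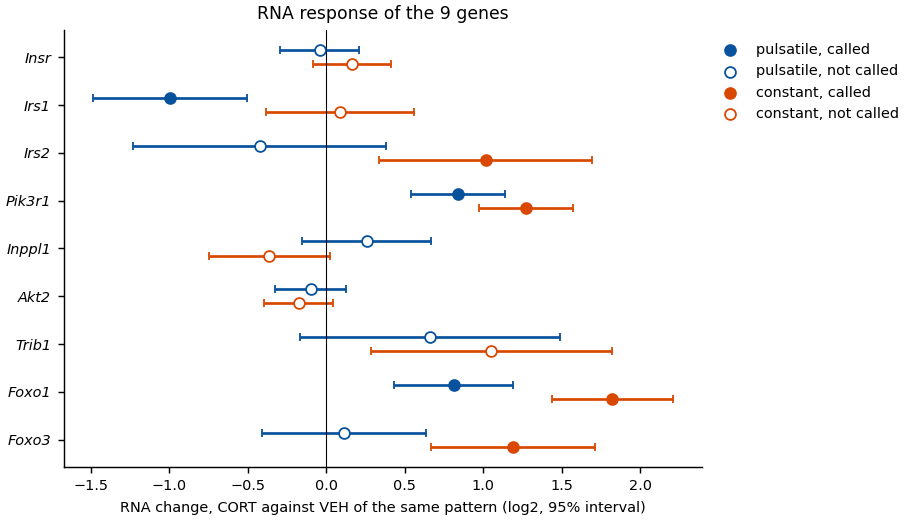
RNA change of the 9 genes, CORT against VEH of the same pattern (horizontal axis, log2, with 95% intervals), for the pulsatile and the constant response. Filled points passed both thresholds, which were Irs1, Pik3r1 and Foxo1 in the pulsatile and Foxo1, Pik3r1, Foxo3 and Irs2 in the constant response. The difference between the responses was called for none of the 9.

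Whether the constant response differed from the pulsatile response was tested directly as an interaction. No member was called, where 0.0284% of genes were called, that is 4 genes, with 1749 genes at an unadjusted p below 0.05. The difference was 1.01 ± 0.25 for Foxo1 (adjusted p = 0.105), 1.085 ± 0.32 for Irs1 (0.156), 1.07 ± 0.35 for Foxo3 (0.193) and 1.44 ± 0.50 for Irs2 (0.223), all on the log2 scale in edgeR. These differences correspond to 2.02-fold to 2.71-fold and missed the threshold. Without constant VEH replicate 1 the differences of Foxo1 (1.30, adjusted p = 0.0135) and Foxo3 (1.49, adjusted p = 0.0207) were called, where 2.05% of genes were. In that fit the VEH groups carry numbers 812 and 813 (constant) and 1081 to 1089 (pulsatile), so pattern and library series cannot be told apart between them. DESeq2 called Foxo1 and Irs1, and edgeR with no filter on low counts called Foxo1, Irs1 and Foxo3. Pulsatile VEH and constant VEH were also compared, and 0% of genes and no member were called by edgeR, with 1286 genes at an unadjusted p below 0.05 and 22 calls by DESeq2.

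Other components of the pathway were then counted. Of 56 of them, from Igf1r to Eif4ebp2, 50 were tested and none was called in either response or in the interaction. Their median change was 0.04 in the constant and -0.07 in the pulsatile response, and 11 and 12 of them had an unadjusted p below 0.05, near the 25.3% and 19.8% of all genes. Eif4ebp2, a brake on translation, changed by 0.50 (adjusted p = 0.03) and Rictor, a part of the kinase complex that acts on Akt, by 0.35 (0.0499) in the constant response. Gab1, a docking protein, changed by -0.57 in the pulsatile response (0.0439). All 3 were below the 1.5-fold threshold. Without constant VEH replicate 1, 1 of the 50 was called in the constant response, where 8.69% of all genes were, and 2 in the interaction, where 2.05% were.

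Transcripts that the Foxo factors are known to control were counted next. Of 17 such genes 16 were tested, and G6pc, the last enzyme of glucose release, was listed with 0 reads in every library. With constant CORT 4 rose and 2 fell, and with pulsatile CORT 2 rose and 1 fell, with a median change of -0.11 and 0.05. Of all genes 9.2% were called in the constant response (627 up, 670 down) and 4.23% in the pulsatile response (252 up, 344 down). Ppargc1a, a coactivator of gluconeogenic genes, stood at 163, 148 and 175 CPM in constant CORT against 23.9, 17.4 and 21.9 CPM in constant VEH. In pulsatile CORT it stood at 58.5, 32.6 and 41.8 CPM against 17.8, 20.6 and 29.9 CPM. It rose by 2.93 ± 0.21 in the constant and by 0.98 ± 0.21 in the pulsatile response, and the difference of 1.95 ± 0.29 was called (adjusted p = 0.0323).

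Igfbp1, an insulin-repressed binding protein of growth factors, stood at 251, 172 and 154 CPM in constant CORT against 19.3, 14.3 and 39.3 CPM in constant VEH, a rise of 2.98 ± 0.37 (adjusted p = 5.06e-05). Its pulsatile change of 1.05 had an adjusted p of 0.143, and the difference of 1.94 had 0.142. Pck1, which commits carbon to glucose, rose by 0.91 ± 0.17 in the constant and 1.00 ± 0.17 in the pulsatile response, a difference of -0.09 ± 0.24. Gadd45b, a stress gene with a mean of 1.16 CPM, rose by 2.56 ± 0.54 with constant CORT. Pdk4, which restrains glucose oxidation, fell by 1.22 and Sesn3, a stress-induced regulator of growth, by 0.81. Fbxo32, a ubiquitin ligase subunit, fell by 0.72 with pulsatile CORT. The list thus held called genes of both directions.

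Genes that insulin induces in liver were lower with constant CORT. Of 9, 8 were tested, and 6 fell and none rose in the constant response, where 9.2% of all genes were called, with a median change of -1.80. In the pulsatile response 1 fell, Me1, a source of NADPH for lipid synthesis, by 0.59, and the median change was -0.27. Fasn, fatty acid synthase, stood at 61.1, 64.0 and 117 CPM in constant CORT, below the 357, 727 and 299 CPM of constant VEH. In pulsatile CORT it stood at 176, 309 and 323 CPM and in pulsatile VEH at 393, 169 and 521 CPM, which overlapped. It fell by 2.51 in the constant response (SE 0.40, adjusted p = 0.000514), and its pulsatile change was -0.42 ± 0.38.

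The other 5 that fell with constant CORT were Scd, which desaturates fatty acids, by 3.80, Acly, which supplies acetyl-CoA, by 1.82, Pklr, liver pyruvate kinase, by 1.79, Srebf1, the factor that drives lipid synthesis, by 1.54, and Me1, by 1.51. Scd varied most, from 202 to 1286 CPM within constant VEH. Acaca, which makes malonyl-CoA, had a change of -0.85 ± 0.31 that was not called (edgeR, adjusted p = 0.0896). No gene of the list was called in the interaction, where the lowest adjusted p was 0.0721, for Pklr, and all 8 changes were lower in the constant response. Without constant VEH replicate 1 there were again 6 falls, and 4 of the 8 were called in the interaction, where 2.05% of all genes were.

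**Figure D3:**
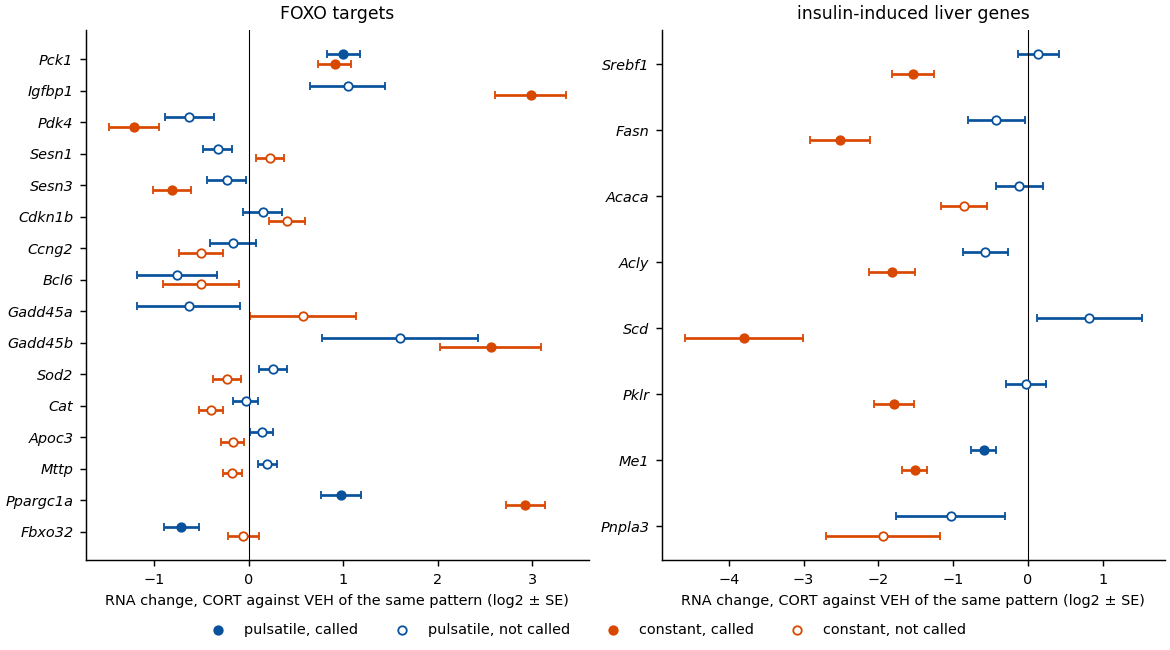
RNA change, CORT against VEH of the same pattern (horizontal axes, log2 ± SE), for FOXO targets and for insulin-induced liver genes, with filled points where a gene was called. Most insulin-induced genes lie below -1 in the constant response, and Ppargc1a and Igfbp1 near 3 in the same response.

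By the likeness of RNA levels over the 12 libraries (Pearson correlation of log2 CPM, as a description), genes among the 3 closest to Foxo1 were Mtss1 (0.98) and Baiap2l1 (0.98). Closest to Pik3r1 were Baz1a (0.97), Rab28 (0.96) and Ubxn2b (0.96). Closest to Foxo3 were AABR07025387.1 (0.96), Med13l (0.93) and Cpt1a (0.93), the last of them the gate of fatty acid oxidation. The 12 libraries share the same 4 groups, so genes that answer CORT in the same groups correlate.

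Occupancy of pSer2 Pol2, the elongating form of RNA polymerase II, was compared over the gene body, within 10 kb of the TSS. The values are log2, and values of regions with few tags sit near a lower limit. Described regions in rn6 were chr2:141451234-141461234 for Foxo1, chr20:46428124-46438124 for Foxo3, chr2:31816867-31826867 for Pik3r1, chr9:88076488-88086488 for Irs1, chr16:83824430-83834430 for Irs2 and chr7:99954492-99961026 for Trib1. Those of Insr (chr12:1806414-1816414), Akt2 (chr1:84411726-84421726) and Inppl1 (chr1:166902524-166912524) complete the 9. The 22 regions of the members cover 12 distinct stretches, since gene and transcript entries repeat.

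No region of a member was called in any of the 7 comparisons by limma over all 10 libraries. The share of regions called was itself small, at 0.121% in PEAK_140 against VEH, 0.00328% in NADIR_180, 0.121% in CONS_140 and 0.0131% in CONS_180. It was 0.125% in PEAK_140 against NADIR_180, 0.0131% in CONS_180 against NADIR_180 and 0.0344% in PEAK_140 against CONS_140. Unadjusted p values below 0.05 were counted for 3, 0, 5 and 3 of the 9 members against VEH, in that order, and for 2, 2 and 3 in the direct comparisons. Of all regions 3.18%, 1.2%, 3.82% and 1.99% had such a p against VEH, and 3.15%, 1.7% and 5.3% in the direct comparisons. A missing call does not show that occupancy was the same. The comparisons against VEH share the same 2 VEH libraries.

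**Figure D4:**
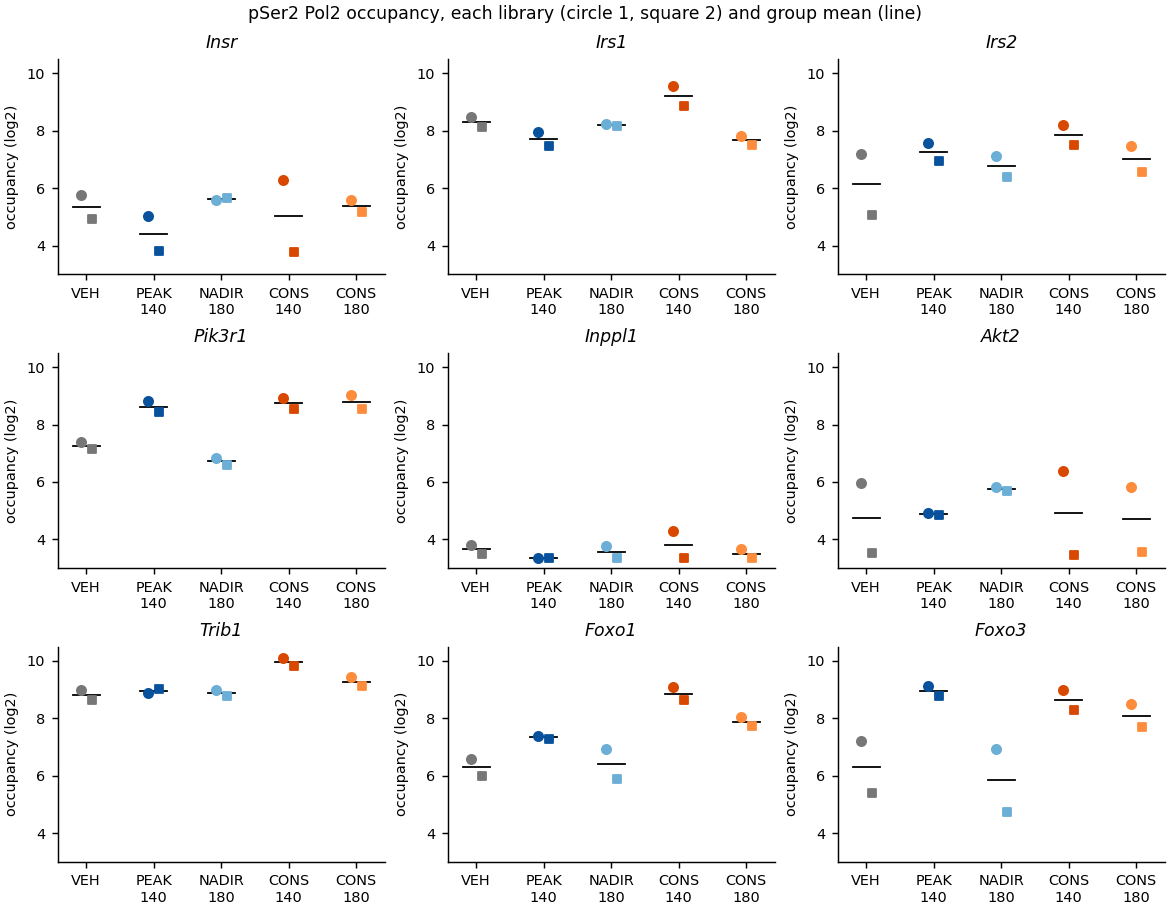
pSer2 Pol2 occupancy (vertical axes, log2) of the 9 genes in VEH and the 4 CORT groups, with library 1 as a circle, library 2 as a square and the group mean as a line. Pik3r1 and Foxo3 were higher in PEAK_140, CONS_140 and CONS_180 than in VEH and NADIR_180, and the VEH and NADIR_180 libraries of Foxo3 lie far apart.

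At Pik3r1, occupancy was 7.38 and 7.15 in VEH, 8.81 and 8.44 in PEAK_140, 6.84 and 6.61 in NADIR_180, 8.94 and 8.53 in CONS_140, and 9.03 and 8.55 in CONS_180. Both NADIR_180 libraries were the lowest of the 10, and the other 3 CORT groups lay above VEH. PEAK_140 exceeded NADIR_180 by 1.91 ± 0.24 (limma, adjusted p = 0.1) and CONS_180 exceeded it by 2.07 ± 0.24 (adjusted p = 0.117). With the replicate number as a block, the first of these was called (limma adjusted p = 0.0329) and the second had an adjusted p of 0.0522. No label pairs these libraries. Calls over all regions with the block were 0 to 31 in the 7 comparisons, against 2 to 76 without it. The Pik3r1 values above are from the start of its long transcript. At a short Pik3r1 transcript the change over VEH was 0.87 in PEAK_140, -0.36 in NADIR_180, 0.85 in CONS_140 and 1.21 in CONS_180. None of these was called.

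Foxo1 had an occupancy of 6.58 and 6.00 in VEH and 7.39 and 7.29 in PEAK_140. It was 6.94 and 5.89 in NADIR_180, 9.08 and 8.64 in CONS_140, and 8.04 and 7.72 in CONS_180. All 4 CONS libraries lay above all PULS and VEH libraries. CONS_140 exceeded VEH by 2.57 ± 0.40 (adjusted p = 0.174) and PEAK_140 exceeded it by 1.05 ± 0.40 (adjusted p = 1). The direct difference of PEAK_140 from CONS_140 was -1.52 ± 0.40, with an unadjusted p of 0.01 and an adjusted p of 0.582 in limma.

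Foxo3 had an occupancy of 7.20 and 5.41 in VEH, 9.11 and 8.78 in PEAK_140, 6.93 and 4.73 in NADIR_180, 8.99 and 8.27 in CONS_140, and 8.49 and 7.69 in CONS_180. The 6 libraries of PEAK_140, CONS_140 and CONS_180 lay above the 4 of VEH and NADIR_180, whose own pairs were apart by about 2. PEAK_140 exceeded NADIR_180 by 3.12 ± 0.92 (95% interval 0.83 to 5.40, adjusted p = 0.999 in limma). Both Pik3r1 and Foxo3 thus had higher values in PEAK_140 than in NADIR_180, with no call at Foxo3 and a call at Pik3r1 only with the replicate block.

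At Irs1 the value was 8.48 and 8.14 in VEH, 7.96 and 7.47 in PEAK_140, 8.23 and 8.15 in NADIR_180, 9.56 and 8.87 in CONS_140, and 7.83 and 7.50 in CONS_180. CONS_140 was the highest group, and PEAK_140 and CONS_180 lay below VEH. PEAK_140 differed from CONS_140 by -1.498 ± 0.29 (limma unadjusted p = 0.00267, adjusted p = 0.396). Trib1 had an occupancy of 8.98 and 8.63 in VEH, 8.89 and 9.01 in PEAK_140, 8.999 and 8.78 in NADIR_180, 10.1 and 9.82 in CONS_140, and 9.43 and 9.12 in CONS_180. Its CONS_140 libraries exceeded VEH by 1.15 ± 0.18 (limma adjusted p = 0.177), and PEAK_140 differed from VEH by 0.14 ± 0.18.

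Irs2 ranged from 5.08 to 7.19 in VEH, and its change in CONS_140 of 1.73 had a 95% interval of -0.22 to 3.67. Insr ranged from 3.77 to 6.27 and Akt2 from 3.45 to 6.37 over the 10 libraries, in both cases within CONS_140 alone. Inppl1 sat at its lowest value in 5 of 10 libraries and its changes are not read here. VEH replicate 2 and CONS_180 replicate 2 were the lower of their pairs at all 9 genes, and so was CONS_140 replicate 2. Without it, Irs1, Pik3r1, Foxo1 and Trib1 were called in CONS_140 against VEH, but 8.13% of all regions were then called too, and Irs1 and Trib1 were called in PEAK_140 against CONS_140, where 10.1% were.

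GR occupancy was compared at the 13 regions within 50 kb of a member. Trib1 had 5 of them, Pik3r1 4, Foxo3 3 and Irs2 1, and Insr, Irs1, Akt2, Foxo1 and Inppl1 had none. Of the 13, 9 were annotated to introns, 3 were intergenic and 1 lay at a promoter. Peaks had been called at 9 of them in PEAK_140, 6 in CONS_140, 9 in CONS_180 and none in NADIR_180 or VEH. Regions were listed by the authors through a peak in some group, for some of the 13 a single one. Examples are Trib1 at 4.52 kb (PEAK_140), the Trib1 promoter (CONS_140) and Foxo3 at 43.03 kb (CONS_180). Higher values in such groups than in VEH or NADIR_180 were thus in part fixed by the listing. The tests below describe these regions and are no independent support for a rise.

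Some of the letters in these regions are known from the study's own motif matches, which were used here in part and covered 4 of the 13 regions. Of 9 matches 5 are shown, since they let the letters of partner motifs be read beside the occupancy of Trib1 and Foxo3 regions. Capitals mark TTCNNNGAA in the STAT5 matches, TTGNNNAA in the CEBPA matches and AGAACA in the match to the FOXM1 motif, and the letters are those of the forward strand.
Trib1, 4.52 kb downstream, STAT5: cggTTCCTGGAAtgt
Foxo3, 27.73 kb downstream, STAT5: tttTTCTTAGAAgag
Foxo3, 27.73 kb downstream, CEBPA: aTTGTGAAAtcg
Trib1, 0.19 kb upstream, CEBPA: tcaTTGCACAAc
Trib1, 17.51 kb downstream, FOXM1: ggcAGAACAttc

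GR regions rose over VEH at 9 of 13 in PEAK_140, where 80.5% of all GR regions were called, at 8 in CONS_140 (65.1%), at 9 in CONS_180 (68.2%) and at 2 in NADIR_180 (7.79%). PEAK_140 exceeded NADIR_180 at 10 of 13 (69.3%), and CONS_180 exceeded NADIR_180 at 9 (49.6%). None differed between PEAK_140 and CONS_140, where 0.0502% of regions were called, 560 had an unadjusted p below 0.05, and no other setting run called 1 of the 13. The 13 regions were thus called in 69.2%, 61.5%, 69.2% and 15.4% in PEAK_140, CONS_140, CONS_180 and NADIR_180 against VEH, near the shares of all regions except in NADIR_180, where 2 regions make the share. The median change over VEH in PEAK_140 was 4.80 for the 13 and 4.17 for all 3981. In the CORT groups the median of all regions lay 0.84 to 4.17 above VEH on the log2 scale. A change below the median of its group was smaller than that of most GR regions. After each library was centred on its own median, 2, 4, 1 and 0 of the 13 were called in PEAK_140, CONS_140, CONS_180 and NADIR_180 against VEH, and of the 4 in CONS_140 2 were then lower. Of all GR regions 13.4%, 12%, 8.21% and 0% were then called, so these counts too lay near the background in PEAK_140 and CONS_180. For GR the pulsatile CORT libraries carry numbers 1799 to 1805, and the VEH libraries, also pulsatile, share the range of CONS, 1992 to 2011. For pSer2 Pol2 the numbers were 1838 to 1990 for pulsatile CORT, where PEAK_140 replicate 2 had 1990, and 1993 to 2012 for VEH and CONS. In GR, pulsatile CORT and library series thus cannot be told apart in comparisons with VEH or CONS. In pSer2 Pol2 the same holds for NADIR_180, with numbers 1838 and 1839. PEAK_140 was split there, with replicate 1 at 1840 and replicate 2 at 1990.

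**Figure D5:**
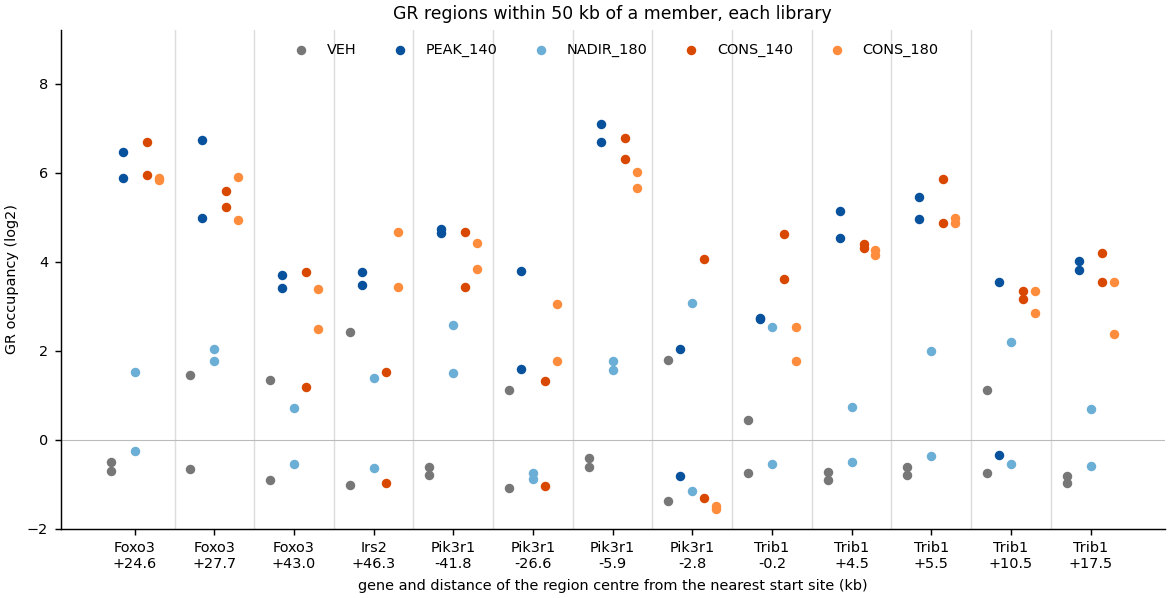
GR occupancy (vertical axis, log2) in each library at the 13 regions, named by gene and by the distance of the region centre from the nearest TSS in kb (horizontal axis). PEAK_140, CONS_140 and CONS_180 lie above VEH and NADIR_180 at the strongest regions, such as those of Pik3r1 5.91 kb upstream and Foxo3 24.64 kb downstream.

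The region with the highest mean occupancy in PEAK_140 and CONS_140 lay at Pik3r1 (chr2:31759120-31759747), in intron 7 of 15 of the long transcript and 5.91 kb upstream of the start of a short one. Occupancy there was -0.41 and -0.61 in VEH, 7.10 and 6.68 in PEAK_140, 1.55 and 1.78 in NADIR_180, 6.78 and 6.30 in CONS_140, and 5.65 and 6.01 in CONS_180. Both NADIR_180 libraries lay above VEH and far below the other CORT groups, and in CONS_180 the Foxo3 region at 24.64 kb was as high (means of 5.86 and 5.83). The fitted change over VEH was 7.40 ± 0.45 in PEAK_140 (limma adjusted p = 8.79e-06), 6.34 ± 0.45 in CONS_180 and 2.18 ± 0.45 in NADIR_180 (adjusted p = 0.0185). The call in NADIR_180 was lost after centring, without the variance trend and with the 4 libraries alone, with adjusted p up to 0.704. PEAK_140 exceeded NADIR_180 by 5.23 ± 0.45 (adjusted p = 0.000217). As VEH is near the lower limit of these values, such changes depend on the fit and are no measure of a fold.

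A second region of Pik3r1, 41.8 kb upstream of the start of the long transcript (chr2:31868285-31869058), was the other one called in NADIR_180, by 2.75 ± 0.66 (limma adjusted p = 0.038). It stood at 1.5 and 2.57 in NADIR_180, above -0.62 and -0.80 in VEH and below 4.73 and 4.64 in PEAK_140. Leaving out either VEH library or NADIR_180 replicate 2 ended this call, with adjusted p up to 0.157, as did 3 other alternatives, of which centring gave the highest (0.602). The remaining Pik3r1 regions were weak. Their distances count from the start of the short transcript, and they lie in introns of the long one. The one 26.63 kb upstream was called only against NADIR_180, by 3.50 ± 1.17 in PEAK_140 (adjusted p = 0.0253) and 3.21 ± 1.17 in CONS_180 (adjusted p = 0.0473), and lost these calls without either NADIR_180 library, without PEAK_140 replicate 1 or without either CONS_180 library. The one 2.77 kb upstream ranged from -1.57 to 4.05 with no order by group.

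Foxo3 had 2 strong regions in the single intron of an annotated transcript, at 24.64 kb (chr20:46453547-46454172) and 27.73 kb (chr20:46456640-46457265). The first stood at -0.50 and -0.70 in VEH, 5.89 and 6.46 in PEAK_140, 1.52 and -0.26 in NADIR_180, 6.68 and 5.94 in CONS_140, and 5.88 and 5.84 in CONS_180. PEAK_140, CONS_140 and CONS_180 did not overlap VEH or NADIR_180. The change over VEH was 6.78 ± 0.65 in PEAK_140, 6.92 ± 0.65 in CONS_140 and 6.46 ± 0.65 in CONS_180, and 1.24 ± 0.65 in NADIR_180 (limma adjusted p = 0.385). Without NADIR_180 replicate 2 the change in NADIR_180 was called, with an adjusted p of 0.02. It was the region of Foxo3 called in PEAK_140, CONS_140 and CONS_180 also after centring.

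The second Foxo3 region, which holds the STAT5 and CEBPA letters above, changed by 5.45 ± 0.82 in PEAK_140 and 1.49 ± 0.82 in NADIR_180 (limma adjusted p = 0.4). The third, at 43.03 kb, changed by 3.34 ± 1.06 in PEAK_140, and its call was lost without VEH replicate 2 and without either PEAK_140 library, with adjusted p up to 0.137, while centring turned its sign (adjusted p = 0.431). Its call in CONS_180 was likewise lost without VEH replicate 2 or either CONS_180 library. The single Irs2 region, 46.34 kb downstream and intergenic, stood at 3.48 and 3.77 in PEAK_140 and at 4.66 and 3.43 in CONS_180. In CONS_140 it stood at 1.51 and -0.97, within the range of VEH (2.42 and -1.02). It was called in CONS_180 against VEH (3.34 ± 1.30, limma adjusted p = 0.045), and 4 of 9 alternatives ended that call, among them leaving out VEH replicate 2 or either CONS_180 library.

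Trib1 had a cluster of regions from its promoter to 17.51 kb downstream. The pair in its intron 2 of 2, at 4.52 kb (chr7:99958811-99959206) and 5.50 kb (chr7:99959623-99960352), changed over VEH by 5.66 ± 0.62 and 5.91 ± 0.79 in PEAK_140 and by 0.93 ± 0.62 and 1.51 ± 0.79 in NADIR_180. The region at 5.50 kb stood at -0.61 and -0.80 in VEH, 5.45 and 4.95 in PEAK_140, 1.99 and -0.37 in NADIR_180, 4.87 and 5.87 in CONS_140, and 4.97 and 4.88 in CONS_180. These 2 regions were called in PEAK_140, CONS_140 and CONS_180 against VEH and in PEAK_140 and CONS_180 against NADIR_180. The promoter region (chr7:99954042-99954569) was weaker, at 2.72 and 2.72 in PEAK_140 and 4.63 and 3.6 in CONS_140. It was called in both of these against VEH (limma adjusted p = 0.0261 and 0.00545) but not in CONS_180, where it changed by 2.30 ± 1.01 (0.0696). Its call in PEAK_140 was lost without VEH replicate 1 or either PEAK_140 library. At 5.50 kb the change in NADIR_180 was called without NADIR_180 replicate 2 (adjusted p = 0.0144). At 17.51 kb the change was 4.80 ± 0.72 in PEAK_140 and 3.85 ± 0.72 in CONS_180, and at 10.53 kb no comparison was called.

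Side by side, Pik3r1 combined a strong GR region, higher pSer2 Pol2 values in PEAK_140, CONS_140 and CONS_180, and RNA that rose in both patterns. Those pSer2 Pol2 values are from the start of the long transcript. The strong GR region lay 67434 b downstream of that start, beyond 50 kb, and 5.91 kb upstream of the short one. Within 50 kb of the long start lay the region 41.8 kb upstream, with a change over VEH of 5.40 ± 0.66 in PEAK_140. A weak region lay 46708 b downstream of the long start. Foxo3 combined 2 strong GR regions and high pSer2 Pol2 values in PEAK_140 with an RNA change at 180 min of pulsatile CORT of 0.12. Trib1 had the most GR regions, and its pSer2 Pol2 value changed by 0.14 in PEAK_140 and 1.15 in CONS_140. Foxo1 had the highest RNA change of the 9 in the constant response and no GR region within 50 kb. RNA was measured at 180 min only, so the RNA at the time of the peak is not known from these data.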

How the data were processed

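Liver RNA (12 libraries), GR ChIP and pSer2 Pol2 ChIP (10 libraries each) were analysed, while the 10 input libraries were not tested. The authors deposited raw read counts per gene for RNA, assigned with featureCounts 1.6.2 to exons on rn6 after alignment (STAR is named in the processing notes). For ChIP the authors trimmed reads to a fixed length with Trimmomatic 0.36, aligned them with bowtie2 to rn6, removed duplicates, called peaks with HOMER 4.9.1 over input and deposited values per region that are headed tag counts but are log2 values, not whole and drawn to a limit at low tags, so the ChIP test was made on log2 values. GR scaling is given in the sources both as to total tags and as to tags in binding regions. Columns of the authors' own comparisons (log2 fold changes, p-values) were not used.

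Reads of 14092 genes, each exceeding 10 over the 12 libraries, were tested with edgeR 4.0.16 (TMM, quasi-likelihood, 12 libraries in 1 fit, SE from the change and its F) and the log2 values with limma 3.58.1 (variance trend, 10 libraries in 1 fit), in R 4.3.3, with Benjamini-Hochberg adjustment over all features and a 1.5-fold threshold. CPM were scaled with TMM. The tests were checked on simulated data. A member was described in pSer2 Pol2 by its widest region, and among equals by that with the highest mean. All members, GR regions within 50 kb and list genes called in either RNA response (up to 6 a list) were named, and other genes were named after their values were seen. The members and lists were chosen with earlier results of these data known. A gene of the list of insulin-induced genes and a gene close to Foxo1 are not reported here. The labels do not tie libraries to further replicates, so p-values measure the spread between these libraries. Same-numbered pSer2 Pol2 libraries deviated together (correlation 0.166 to 0.621 in 12 of 12 pairs). With 2 libraries a group the deviations mirror each other, so each value appears in 2 of the pairs. No label pairs the libraries, and whether the number does was not tested. VEH libraries carry no number and were set at the mean of the blocks. Alternatives were DESeq2, other filters and scalings, the replicate block, fits of the compared groups alone and each library left out, and the counts of lists without constant VEH replicate 1 were added after seeing the data. Figures were drawn with matplotlib 3.10.9.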

Additional observations from a re-analysis of the deposited data

Results flagged for a closer look

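Results are listed here where a direct test found 2 CORT groups or 2 responses to differ. GR occupancy in PEAK_140 exceeded that in NADIR_180 at 10 of the 13 regions (limma, values as log2 differences). The 13 were listed through peaks in the other CORT groups and had none in NADIR_180, which in part fixed the GR differences given here. The differences were 5.54, 3.96 and 3.47 at Foxo3 (24.64, 27.73 and 43.03 kb) and 3.25 at Irs2. At Pik3r1 the difference was 2.65 at 41.8 kb upstream of the long transcript. It was 3.50 and 5.23 at 26.63 and 5.91 kb upstream of the short transcript, inside the long one. At Trib1 the differences were 4.73, 4.40 and 3.86 (4.52, 5.50 and 17.51 kb). CONS_180 exceeded NADIR_180 at 9 regions, by 5.23 and 3.53 at Foxo3 (24.64 and 27.73 kb), 3.67 at Irs2, 2.09, 3.21 and 4.17 at Pik3r1 (41.8, 26.63 and 5.91 kb), and 4.10, 4.12 and 2.91 at Trib1 (4.52, 5.50 and 17.51 kb). Leaving out 1 library ended some of these calls. For PEAK_140 these were Foxo3 43.03 kb and Irs2 (either PEAK_140 library or NADIR_180 replicate 2) and Pik3r1 26.63 kb (PEAK_140 replicate 1 or either NADIR_180 library). For CONS_180 these were Foxo3 27.73 kb (CONS_180 replicate 1), Irs2 (NADIR_180 replicate 2 or either CONS_180 library), Pik3r1 41.8 kb (NADIR_180 replicate 1 or either CONS_180 library), Pik3r1 26.63 kb (any of the 4 libraries) and Trib1 17.51 kb (NADIR_180 replicate 2 or CONS_180 replicate 2). In RNA, the constant response of Ppargc1a exceeded its pulsatile response by 1.95 on the log2 scale (edgeR, adjusted p = 0.0323). No outlier test was made, since all groups held 2 or 3 libraries.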

How the results depend on the processing

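Where members or regions had been called, 73 of 92 recomputed counts were within 1.5 times the reported count, and no called RNA value changed sign. Where none had been called, as in all 7 pSer2 Pol2 comparisons, 106 of 112 stayed at 0, which says little about stability. In RNA, the interaction gave 2 members with DESeq2 (215 genes in all) and 3 with no filter on low counts (204 genes), against 0 (4 genes) as reported. Leaving out 1 library gave 3 to 4 members in the constant response, 2 to 3 in the pulsatile response and 0 to 2 in the interaction, where constant VEH replicate 1 gave the 2. In pSer2 Pol2 it gave 0 to 4 in CONS_140 against VEH and 0 to 2 in PEAK_140 against CONS_140, in both through CONS_140 replicate 2. In GR it gave 7 to 10 regions in PEAK_140, 1 to 3 in NADIR_180, 8 to 9 in CONS_140 and 7 to 9 in CONS_180 against VEH, 7 to 10 in PEAK_140 and 5 to 8 in CONS_180 against NADIR_180. Centring each GR library on its median gave 2, 0, 4 and 1 regions in PEAK_140, NADIR_180, CONS_140 and CONS_180 against VEH and 0 in both against NADIR_180, where 13.4%, 0%, 12% and 8.21% of all regions, and 5.43% and 0%, were called. It turned the sign at Foxo3 43.03 kb (-1.28 in PEAK_140, -1.33 in CONS_180), Trib1 promoter (-1.73 in PEAK_140), Trib1 17.51 kb (-0.21 in CONS_180), Irs2 (-0.72 in CONS_180, -0.19 in PEAK_140 against NADIR_180) and Pik3r1 41.8 kb (-0.79 in PEAK_140 and -0.79 in CONS_180 against NADIR_180), and called Pik3r1 26.63 kb (-3.98) and Irs2 (-4.54) lower in CONS_140. By construction, centring takes out any shift that most regions share. NADIR_180 against VEH had 0 regions without the variance trend and with 4 libraries alone, and the cause was not tested. Fewer regions were counted above the median of mean values (6 in PEAK_140 against NADIR_180) and within 20 kb (5, 1, 5 and 4 against VEH in the order PEAK_140, NADIR_180, CONS_140, CONS_180, and 4 and 4 against NADIR_180). With the replicate number as a block, 3 RNA members were called in each response, and 1 in pSer2 Pol2 (Pik3r1, PEAK_140 against NADIR_180). For GR the block gave 11, 2, 9 and 11 against VEH and 10 and 10 against NADIR_180. Same-numbered libraries correlated by -0.05 to 0.08 in RNA and -0.03 to 0.07 in GR, so there they share only a number. The block changed no other call of a pSer2 Pol2 member. DESeq2 gave no adjusted p for Irs2, Trib1 and Inppl1 in the interaction and between the VEH groups. Few tags limit the low ChIP regions, and few reads Irs2, Trib1 and Inppl1.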
